A study of Mus musculus with 6 samples.

Results

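The Leydig cell steroidogenesis genes are 10 genes that carry cholesterol into testosterone synthesis or switch it on, and their transcripts were followed in whole mouse testes with or without the label of an Msl3 knockout. They were taken by symbol: the receptor Lhcgr, the regulator Nr5a1, the cholesterol importers Scarb1 and Star, the electron carrier Fdx1, and the enzymes Cyp11a1, Cyp17a1, Hsd3b1, Hsd3b6 and Hsd17b3. The tables list 53700 gene identifiers, of which 21902 passed the filter on low counts, and all 10 steroidogenesis genes passed it. Total RNA was extracted from testes of 6 mice of strain Msl3em1Forni/C57BL/6J at postnatal day 45 and sequenced as single-end reads of 75 bp. Genotype MSL3 WT is given for 3 mice (libraries WT 1, 2 and 3). For the other 3 mice the genotype is given as MSL3 cKO, a conditional knockout of a floxed Msl3 allele (libraries cKO 1, 2 and 3), and each library is labelled a separate biological replicate. The recombinase line, the promoter that drives it and the deleted exons are not given in the sources used here, so the cells that lost Msl3 are not known here.

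Leydig cells lie between the seminiferous tubules and make the testosterone that spermatogenesis needs. Pituitary luteinizing hormone (LH) acts on its receptor and raises cyclic AMP, after which cholesterol is moved into mitochondria, cut to pregnenolone and converted by enzymes of the endoplasmic reticulum into testosterone. Nr5a1 encodes steroidogenic factor 1, a nuclear receptor that binds the promoters of many of these genes.

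None of the 10 genes passed the test between the groups, and the differences were small. An edgeR quasi-likelihood test with Benjamini-Hochberg adjustment called 0 of 10 at an adjusted p of 0.05, against a background of 0.0183% of tested genes (4 of 21902). DESeq2 called 1, Hsd17b3, against 1.48% of the genes it tested (193 of 13069). In the libraries labelled cKO the mean was lower for 7 genes and higher for 3, and it was lower for each of the 5 enzymes. Hsd17b3, the enzyme of the last step to testosterone, had the largest shift relative to its spread: its cKO mean was 76.8% of the WT mean, with a 95% interval from 68.1% to 86.5%. At an unadjusted p under 0.05, 3 of the 10 genes were lower (Hsd17b3, Fdx1 and Cyp11a1), against a background of 6.54% of tested genes, and 0 were higher, against 7.33%. The WT and cKO libraries did not overlap for 2 of the 10 genes, Hsd17b3 and Fdx1, both lower, against a background of 8.85%. The reverse pattern, every cKO library above every WT library, was seen for 0 of 10, against 10% of tested genes. The median log2 fold change of cKO over WT was -0.10 over the 10 genes and 0.0031 over all tested genes, of which 49.3% were lower. The messenger RNA of a cell type in whole testis depends on how many of its cells are present and on how much each cell holds, and these cannot be told apart here.

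The libraries held 56991431 to 73766444 reads assigned to genes, and each steroidogenesis gene had between 920 and 35010 reads in each library. Germ cell markers were far more abundant than Leydig cell genes: 10 elongating spermatid markers together reached 22416 to 26870 CPM (the reads of a gene relative to library size, scaled by the TMM method), and the 10 steroidogenesis genes together reached 949 to 1193 CPM. Epididymis and adrenal markers were near 0. Of 7 epididymis markers the summed level was at most 0.462 CPM, and the adrenal enzyme Cyp11b1 had 0 reads in each library, which allows up to 0.0536 CPM. Adipocyte markers were present: the 5 summed to 10.7 to 14.6 CPM in WT and 9.72 to 12.9 CPM in cKO, mostly Adipoq and Plin1. Fabp4 and Cfd had 48 and 74 reads in cKO 3 and at most 12 and 7 in any other library, and the part of fat in the values of the steroidogenesis genes was not tested. Reads of Msl3 itself did not separate the groups, with 16.0, 18.9 and 15.9 CPM in WT 1, 2 and 3 and 16.0, 14.8 and 15.8 CPM in cKO 1, 2 and 3 (log2 fold change -0.12, SE 0.088, edgeR adjusted p = 0.551). A count over all exons can keep the reads of a transcript that lost some exons, so it checks the knockout only in part, and the groups are called here the libraries labelled WT and cKO.

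**Figure D1:**
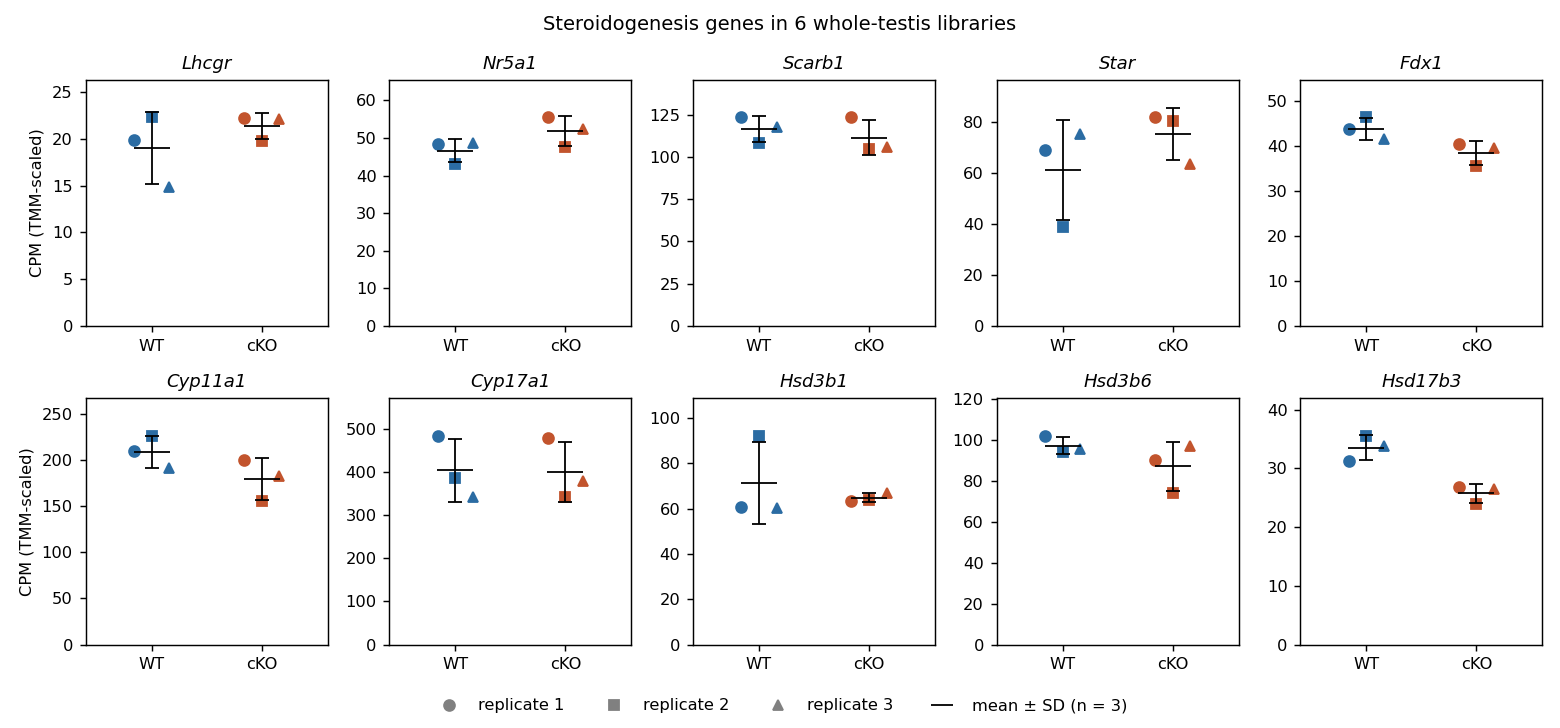
Level of each of the 10 genes in CPM (TMM-scaled, vertical axes from 0) in the 3 libraries labelled WT and the 3 labelled cKO, with symbols for replicates and bars for the mean ± SD. The groups separate for Hsd17b3 and Fdx1, and WT 2 lies apart from WT 1 and WT 3 for Star and Hsd3b1.

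Lhcgr (ENSMUSG00000024107, chr17:88716481-88791990, minus strand, GRCm38) encodes the LH receptor, which starts the response in the Leydig cell. Its level was 19.9, 22.3 and 14.8 CPM in WT 1, 2 and 3 and 22.2, 19.8 and 22.1 CPM in cKO 1, 2 and 3. WT 3 was the lowest library and the groups overlapped. The means were 19.0 ± 3.83 CPM in WT and 21.4 ± 1.37 CPM in cKO (SD, n = 3 each), with a log2 fold change of 0.17 (SE 0.13, edgeR adjusted p = 0.571). The difference rested on WT 3, without which the log2 fold change was 0.0074.

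Nr5a1 (ENSMUSG00000026751, chr2:38692656-38714542, minus strand), expressed in Sertoli cells as well as Leydig cells, had 48.3, 43.0 and 48.6 CPM in WT 1, 2 and 3 and 55.5, 47.7 and 52.4 CPM in cKO 1, 2 and 3. Libraries cKO 1 and cKO 3 lay above all WT libraries and cKO 2 lay between them. The mean was 46.6 ± 3.17 CPM in WT and 51.9 ± 3.94 CPM in cKO, which gave a log2 fold change of 0.15 (SE 0.079, edgeR adjusted p = 0.404).

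Scarb1 (ENSMUSG00000037936, chr5:125277087-125341094, minus strand) encodes the scavenger receptor that takes up cholesterol esters from high-density lipoprotein. It had 123, 108 and 118 CPM in WT 1, 2 and 3 and 123, 105 and 106 CPM in cKO 1, 2 and 3, so that the highest library of each group was almost the same. Means of 116 ± 7.66 CPM in WT and 111 ± 10.5 CPM in cKO gave a log2 fold change of -0.064 (SE 0.081, edgeR adjusted p = 0.766). The 95% interval, from -0.24 to 0.11, leaves room for a modest change in either direction.

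Star (ENSMUSG00000031574, chr8:25806555-25815982, plus strand) encodes the protein that moves cholesterol to the inner mitochondrial membrane, the step that LH controls within minutes. Its libraries had 69.0, 38.7 and 75.1 CPM in WT 1, 2 and 3 and 81.7, 80.3 and 63.3 CPM in cKO 1, 2 and 3. WT 2 was far below the other 5 libraries, and the remaining WT and cKO libraries overlapped. The mean was 60.9 ± 19.5 CPM in WT and 75.1 ± 10.2 CPM in cKO, with the highest log2 fold change of the 10 genes, 0.30, and also the largest standard error, 0.19 (edgeR adjusted p = 0.496). Without WT 2 the log2 fold change was 0.059. Star also had the largest share of same-strand reads, which were not used here, 3.74%, against 0.0261% for Hsd3b6, the lowest share.

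Fdx1 (ENSMUSG00000032051, chr9:51943306-51963556, minus strand) encodes ferredoxin, which passes electrons to the mitochondrial enzyme Cyp11a1. It had 43.6, 46.3 and 41.4 CPM in WT 1, 2 and 3 and 40.3, 35.4 and 39.5 CPM in cKO 1, 2 and 3. Every cKO library was below every WT library, by a narrow margin between cKO 1 and WT 3. The means were 43.8 ± 2.43 CPM and 38.4 ± 2.63 CPM, with a log2 fold change of -0.19 (SE 0.076, edgeR unadjusted p = 0.0291, adjusted p = 0.316). The 250 bases before the start of the RefSeq transcript (RefSeq, GRCm38.p6, chr9:51963603-51963852, minus strand) are shown because all 3 of their matches to the motifs searched lie before the start, more than in the windows of the other 5 genes that have one. Capitals mark TGATAA, a form of the site of GATA factors, and TCAAGG or its reverse complement CCTTGA, the first letters of a form of the NR5A1 site, which alone do not make up that site.
Fdx1: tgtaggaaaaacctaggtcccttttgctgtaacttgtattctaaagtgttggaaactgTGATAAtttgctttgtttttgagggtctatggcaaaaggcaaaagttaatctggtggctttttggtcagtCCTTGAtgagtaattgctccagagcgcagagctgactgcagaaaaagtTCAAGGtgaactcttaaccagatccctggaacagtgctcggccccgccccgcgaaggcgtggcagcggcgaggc
In the Fdx1 window the GATA form began 192 bases before the start, and the TCAAGG matches began 122 and 74 bases before it, on opposite strands.

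Cyp11a1 (ENSMUSG00000032323, chr9:58006411-58027023, plus strand) encodes the side-chain cleavage enzyme that makes pregnenolone from cholesterol, the step that commits cholesterol to steroids. It had 209, 226 and 192 CPM in WT 1, 2 and 3 and 200, 155 and 183 CPM in cKO 1, 2 and 3. Here cKO 1 lay above WT 3 and cKO 2 lay well below all others, so that the groups overlapped. The mean was 209 ± 17.4 CPM in WT and 179 ± 22.6 CPM in cKO (log2 fold change -0.22, SE 0.095, edgeR unadjusted p = 0.0378, adjusted p = 0.336). Without cKO 2 the log2 fold change was -0.13. Its annotation overlaps Gm17322 on the same strand over 145 bases, and 1.48% of its windows of 75 bases, the length of a read, are shared with that gene.

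Cyp17a1 (ENSMUSG00000003555, chr19:46667165-46673172, minus strand) encodes the enzyme that turns progestins into androgens and was the most abundant of the 10 genes. It had 485, 386 and 344 CPM in WT 1, 2 and 3 and 480, 344 and 380 CPM in cKO 1, 2 and 3. The spread inside each group was wide and of the same size, with 1 high library in each. The means were 405 ± 72.6 CPM in WT and 401 ± 70.4 CPM in cKO, a log2 fold change of -0.012 (SE 0.13, edgeR adjusted p = 0.977). The cKO level was 99.1% of WT with a 95% interval from 81.1% to 121%, so a change of up to about that size was not detectable with these libraries. The sign was not stable: without WT 1 the log2 fold change was 0.14, and without cKO 1 it was -0.16.

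Hsd3b1 and Hsd3b6 encode isoforms of the dehydrogenase that converts pregnenolone to progesterone and, further on, androgen precursors to androstenedione. They lie on chromosome 3 on the minus strand, Hsd3b6 (ENSMUSG00000027869) at chr3:98805504-98814443 and Hsd3b1 (ENSMUSG00000027871) at chr3:98852194-98859794, next to each other among the tested genes. Hsd3b1 had 60.9, 92.1 and 60.4 CPM in WT 1, 2 and 3 and 63.4, 63.7 and 67.0 CPM in cKO 1, 2 and 3. WT 2 stood above the other 5 libraries and made the groups overlap, while WT 1 and WT 3 lay just below all 3 cKO libraries. The means of 71.1 ± 18.2 CPM and 64.7 ± 2.00 CPM gave a log2 fold change of -0.14 (SE 0.13, edgeR adjusted p = 0.684), which turned to 0.092 without WT 2. Hsd3b6 had 102, 94.1 and 95.6 CPM in WT 1, 2 and 3 and 90.4, 73.9 and 96.9 CPM in cKO 1, 2 and 3. In this case WT 2 was unremarkable and cKO 2 was the lowest library. The Hsd3b6 means were 97.3 ± 4.20 CPM and 87.1 ± 11.9 CPM, with a log2 fold change of -0.16 (SE 0.093, edgeR adjusted p = 0.460).

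The ratio of Hsd3b1 to Hsd3b6 was 0.597, 0.979 and 0.632 in WT 1, 2 and 3 and 0.701, 0.862 and 0.691 in cKO 1, 2 and 3, with overlapping groups. Both transcripts are mostly distinct at read length: 1.35% of the 75-base windows of Hsd3b1 and 7.61% of those of Hsd3b6 occur in another gene, the latter mainly in Hsd3b3. The other isoforms Hsd3b2, Hsd3b3, Hsd3b4, Hsd3b5 and Hsd3b7 were at or near 0 and summed to at most 0.308 CPM in any library. The 250 bases before the RefSeq start of Hsd3b6 (chr3:98814444-98814693) and of Hsd3b1 (chr3:98859795-98860044), both on the minus strand of GRCm38.p6, are shown because these neighbours had different profiles over the libraries. Capitals mark AGATAA or its reverse complement TTATCT, another GATA form, and CCTTGA as above.
Hsd3b6: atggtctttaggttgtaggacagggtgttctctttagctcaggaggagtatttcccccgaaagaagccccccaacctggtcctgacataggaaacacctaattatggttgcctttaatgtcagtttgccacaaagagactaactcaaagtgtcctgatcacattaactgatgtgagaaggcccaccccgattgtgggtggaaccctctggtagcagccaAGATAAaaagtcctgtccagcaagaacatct
Hsd3b1: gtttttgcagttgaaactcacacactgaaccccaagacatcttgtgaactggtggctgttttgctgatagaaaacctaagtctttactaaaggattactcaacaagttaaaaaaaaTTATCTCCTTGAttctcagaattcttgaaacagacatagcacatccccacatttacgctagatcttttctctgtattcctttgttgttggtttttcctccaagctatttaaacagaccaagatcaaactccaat
Hsd3b6 had the GATA form 31 bases before the start. Hsd3b1 had it on the other strand at 134 bases, directly followed by CCTTGA at 128 bases.

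Hsd17b3 (ENSMUSG00000033122, chr13:64058266-64089230, minus strand) encodes the enzyme that reduces androstenedione to testosterone and is known as a gene of adult-type Leydig cells. It had 31.2, 35.5 and 33.8 CPM in WT 1, 2 and 3 and 26.9, 23.9 and 26.5 CPM in cKO 1, 2 and 3. All cKO libraries lay below all WT libraries, and the SD of each group was small against the gap between them. The means were 33.5 ± 2.18 CPM in WT and 25.7 ± 1.64 CPM in cKO. That is a log2 fold change of -0.38 (SE 0.079), and edgeR gave an unadjusted p of 4.1e-04 and an adjusted p of 0.276, which does not pass. None of its 75-base windows occur in another gene.

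Whether Hsd17b3 passed depended on the setting, and its direction did not. It was lower in cKO in 15 of 15 alternative fits, with log2 fold changes from -0.43 to -0.29 and adjusted p from 0.00128 to 0.730. It passed in 4 of them: DESeq2 (adjusted p = 0.0116, where 1.48% of tested genes passed), edgeR with no filter on low counts (0.00128, where 2.07% passed), edgeR without WT 1 (0.0479, where 0.518% passed) and edgeR without cKO 1 (0.0256, where 2.82% passed). The 221 bases before the first annotated exon of Hsd17b3 (RefSeq, GRCm38.p6, chr13:64089231-64089451, minus strand) are shown because it had the largest shift relative to its spread. They hold no capitals, since none of the motifs searched matched in this window.
Hsd17b3: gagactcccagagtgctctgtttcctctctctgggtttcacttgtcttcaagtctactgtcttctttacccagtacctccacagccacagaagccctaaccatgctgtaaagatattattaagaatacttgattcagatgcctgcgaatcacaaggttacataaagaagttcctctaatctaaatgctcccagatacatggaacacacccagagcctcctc
The RefSeq table holds windows of 300 bases, 250 before and 50 after the start, for 6 of the 10 genes (7 windows, 2 of them for Cyp11a1). It names none for Cyp17a1, Star, Nr5a1 and Scarb1. Among all 32851 windows of that length, searched on both strands, 11.2% held AGATAA, 9.05% held TGATAA, 18.6% held either of them, and 14.4% held TCAAGG. Of the steroidogenesis genes with a window, 3 of 6 held a GATA form (Hsd3b1, Hsd3b6 and Fdx1) and 4 of 6 held TCAAGG (Fdx1, Hsd3b1, Lhcgr and Cyp11a1). The Cyp11a1 match lay after the start, in the window whose 250 bases before the start are all in annotated exons. Before the start, TCAAGG was in the windows of Fdx1, Hsd3b1 and Lhcgr, and in 12.5% of all windows. The longer NR5A1 motif AAGGTCA, which shares the letters AAGG with TCAAGG, was in 0 of the 7 windows and in 4.72% of all windows. The TATA box TATAAA was in 0 of the 7 and in 13.6% of all. These matches describe letters only.

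**Figure D2:**
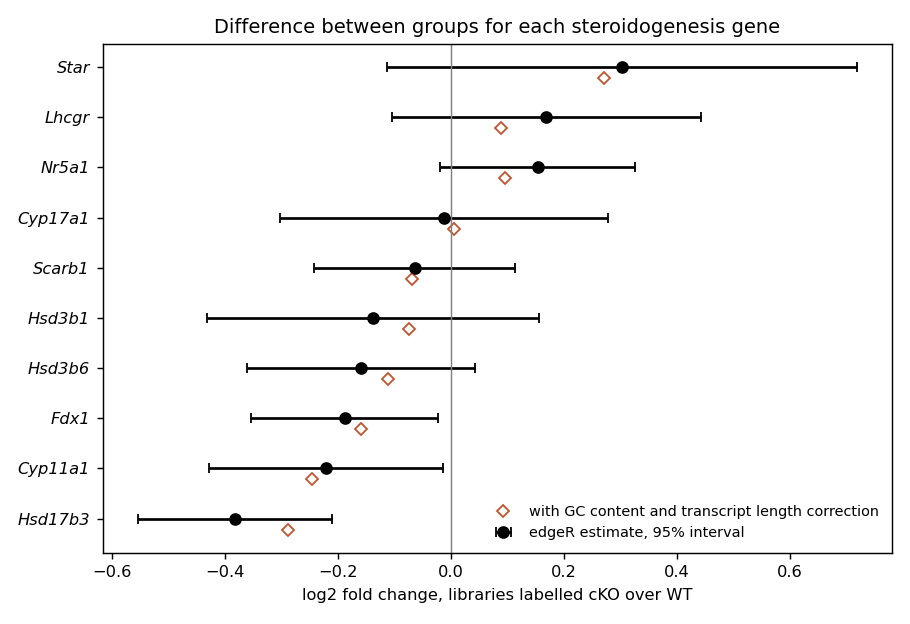
Log2 fold change of the libraries labelled cKO over WT for each of the 10 genes, as points with 95% intervals from edgeR, and as open diamonds after a correction for GC content and transcript length. The intervals of Hsd17b3, Cyp11a1 and Fdx1 lie below 0 and those of the other 7 genes include 0.

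Levels were compared between genes per kilobase of exon. In the WT libraries Cyp17a1 stood first with 146 ± 26.2 CPM per kb, ahead of Hsd3b6 (54.0 ± 2.33), Cyp11a1 (43.5 ± 3.62) and Hsd3b1 (38.4 ± 9.79). Next came Hsd17b3 (24.1 ± 1.56), Star (14.8 ± 4.74), Fdx1 (14.1 ± 0.782), Scarb1 (13.7 ± 0.901), Nr5a1 (11.0 ± 0.747) and Lhcgr (2.49 ± 0.501 CPM per kb). Cyp11a1 and Hsd3b1 overlapped over the WT libraries, as did Star with Fdx1 and Fdx1 with Scarb1, so those neighbours in the order are not separated beyond their spread. By WT means per kb of exon the receptor and the regulator were thus lowest and the 5 enzymes highest. In WT 2, however, Star (9.40 CPM per kb) lay below Nr5a1 (10.1 CPM per kb). The length used was that of all annotated exons of a gene. For Scarb1 it is 8.5 kb against 3.09 kb for the longest transcript, and for Nr5a1 4.24 kb against 2.99 kb. The places of Scarb1 and Nr5a1 in the order therefore depend on the length chosen. In the cKO libraries the first 6 places of the order were the same and Scarb1 stood before Fdx1, with Hsd17b3 and Star close at 18.5 ± 1.2 and 18.3 ± 2.5 CPM per kb. Over the cKO libraries Hsd3b6 overlapped Cyp11a1, Cyp11a1 overlapped Hsd3b1, and Hsd17b3 overlapped Star. Scarb1 overlapped Fdx1, so their change of order is not a separation, and Nr5a1 overlapped both of them.

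The 10 genes did not vary as a block from mouse to mouse. Their summed level was 1193, 1093 and 1023 CPM in WT 1, 2 and 3 and 1184, 949 and 1037 CPM in cKO 1, 2 and 3, so that the cKO mean was 95.8% of the WT mean and the groups overlapped. Library cKO 2 was the lowest of the 6 for 5 genes (Scarb1, Fdx1, Cyp11a1, Hsd3b6 and Hsd17b3), and WT 2 was the highest for 5 (Lhcgr, Fdx1, Cyp11a1, Hsd3b1 and Hsd17b3). The same WT 2 was the lowest for Star and Nr5a1. In WT 2, Star was 0.77 below its own mean log2 CPM over the 6 libraries and Hsd3b1 was 0.46 above its own.

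Among the 45 pairs of these genes, the closest centred profiles were those of Fdx1 and Cyp11a1, the electron carrier and the enzyme it serves, with a root-mean-square difference of 0.060 on the log2 scale over 6 libraries. The ratio of Fdx1 to Cyp11a1 accordingly stayed between 0.202 and 0.228 in all libraries. The farthest pair was Star and Hsd3b1, at 0.57. Their ratio was 1.13, 0.420 and 1.24 in WT 1, 2 and 3 and 1.29, 1.26 and 0.946 in cKO 1, 2 and 3. The ratio of Hsd17b3 to Nr5a1, the end enzyme to the regulator, was 0.646, 0.827 and 0.696 in WT 1, 2 and 3 and 0.484, 0.501 and 0.505 in cKO 1, 2 and 3. Those groups did not overlap, and the cKO libraries were close to each other. The other ratios computed overlapped between the groups. The longest transcripts of Hsd17b3 and Nr5a1 are 1.29 and 2.99 kb. Their ratio was not corrected for length and not tested, and Nr5a1 is also expressed in Sertoli cells.

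**Figure D3:**
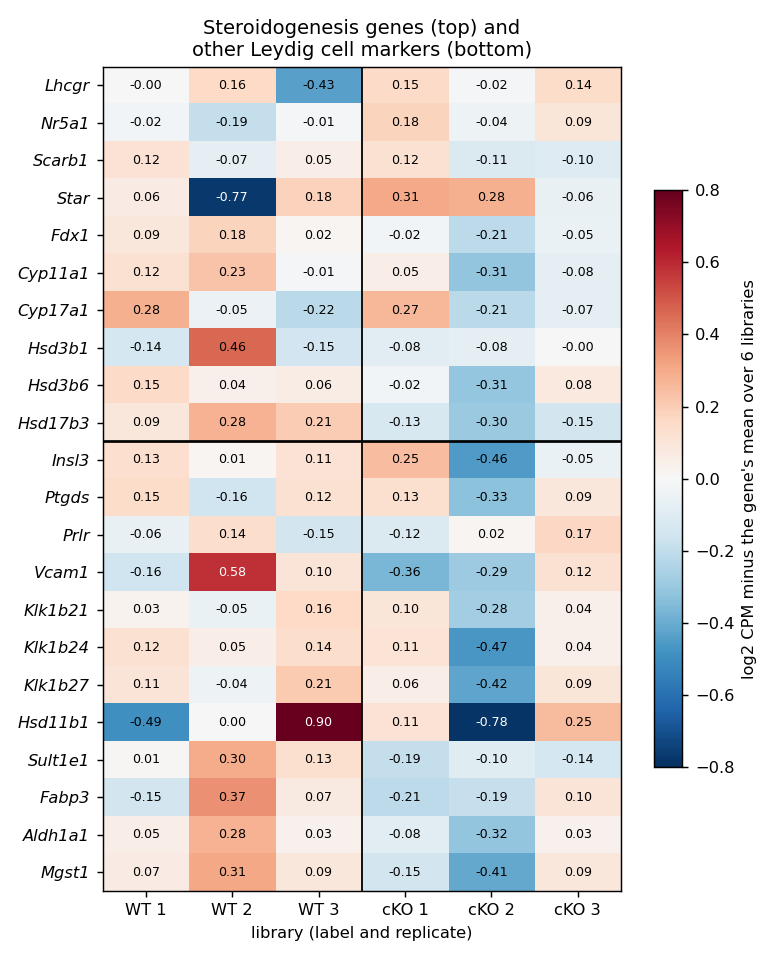
Heat map of log2 CPM minus the gene's own mean over the 6 libraries, with 10 steroidogenesis genes above and 12 other Leydig cell markers below, columns being libraries and the colour scale ending at 0.8 in either direction. Star is low and Hsd3b1 high in WT 2, and most rows of both blocks are low in cKO 2.

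Other markers of Leydig cells were used as a reference for the amount of Leydig RNA in a library. In whole testis their reads can also come from other cells, and their source was not tested. Of 12 such markers, 11 were lower and 1 higher in the libraries labelled cKO, with a median log2 fold change of -0.20. Their median transcript is 1.20 kb, and of all tested genes under 2 kb 71.0% were lower. Corrected for GC content and length, 11 of the 12 were lower, against 10628 of 21851 genes. In the mean of the markers each has the same weight, also Hsd11b1 with 7 to 25 reads per library. None was called by edgeR or DESeq2, 4 of 12 were lower at an unadjusted p under 0.05, against 6.54% of all tested genes, and 1 of 12 was lower without overlap, against 8.85%, a share near the background. The gene without overlap was Sult1e1, an estrogen sulfotransferase, with 9.85 ± 0.990 CPM in WT and 8.05 ± 0.262 CPM in cKO (log2 fold change -0.29, SE 0.097, edgeR adjusted p = 0.297). Insl3, the peptide hormone of Leydig cells, had 66.5 ± 2.90 CPM in WT and 60.1 ± 14.4 CPM in cKO (log2 fold change -0.15, SE 0.13, edgeR adjusted p = 0.660), and 60.1% of its 75-base windows are shared with the overlapping gene Jak3, so its count is uncertain. The retinaldehyde dehydrogenase Aldh1a1, the most abundant of these markers, had 367 ± 36.0 and 311 ± 37.5 CPM (log2 fold change -0.24, SE 0.096, edgeR adjusted p = 0.315).

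Relative to the mean log2 CPM of those 12 markers in the same library, Hsd17b3 was at 0.11, 0.13 and 0.051 in WT 1, 2 and 3 and at -0.091, 0.042 and -0.21 in cKO 1, 2 and 3. It thus stayed lower in cKO, by 0.19 on the log2 scale and without overlap, a smaller gap than in CPM. Its difference was -0.37 without overlap relative to the mean of the other 9 genes, and -0.21 with overlapping groups relative to Insl3 alone, whose count is uncertain. Lhcgr was at -0.54, -0.54 and -1.14 in WT 1, 2 and 3 and at -0.37, -0.23 and -0.47 in cKO 1, 2 and 3 relative to the 12 markers, a difference of 0.38 to which WT 3 contributed most. Its groups overlapped relative to the other 9 genes (0.26) and to Insl3 alone (0.36). Nr5a1 was higher in cKO without overlap on all 3 scales, by 0.35, 0.22 and 0.33. It is also expressed in Sertoli cells, for which these references do not account. Its longest transcript is 2.99 kb, against a median of 1.20 kb for the 12 markers. Fdx1 and Cyp11a1, lower in CPM, differed by 0.0065 and -0.030 relative to the 12 markers. For Hsd3b6, Hsd3b1, Scarb1, Cyp17a1 and Star the differences on that scale were 0.028, 0.087, 0.13, 0.18 and 0.55, with overlapping groups. No test was made of these relative levels, and they were not corrected for transcript length, with which fold changes varied over all genes.

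Transcript length went with the fold change over all genes and is a property in which the 10 genes differ. Tested genes whose longest transcript was under 2 kb had a median log2 fold change of -0.099 (8036 genes, 71.0% lower), those of 2 to 4 kb had 0.014 (7748 genes, 46.2% lower) and those of 4 kb or more had 0.10 (6067 genes, 24.7% lower). Hsd17b3, Hsd3b6 and Hsd3b1 have the shortest transcripts of the steroidogenesis genes, at 1.29, 1.80 and 1.86 kb, and each was lower in cKO. Star and Lhcgr have the longest, at 4.05 and 6.83 kb, and both were higher. Between these lie Cyp17a1 (2.40 kb), Fdx1 (2.76 kb), Nr5a1 (2.99 kb), Scarb1 (3.09 kb) and Cyp11a1 (3.44 kb).

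With a correction of each library for GC content and transcript length, Hsd17b3 had a log2 fold change of -0.29 (SE 0.071, edgeR unadjusted p = 0.00108, adjusted p = 0.370). Cyp11a1 had -0.25 (SE 0.093, edgeR unadjusted p = 0.0184, adjusted p = 0.521) and Fdx1 had -0.16 (SE 0.080, edgeR unadjusted p = 0.0664, adjusted p = 0.612). The correction moved Lhcgr from 0.17 to 0.088, Nr5a1 from 0.15 to 0.096, Hsd3b1 from -0.14 to -0.074 and Hsd3b6 from -0.16 to -0.11. Star, at 0.27, and Scarb1, at -0.069, moved little. The median over the 10 genes moved from -0.10 to -0.072, and that of the 12 other Leydig markers, whose median transcript is 1.20 kb, from -0.20 to -0.096. After correction the medians of the 3 length classes lay between -0.0076 and 0.012.

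**Figure D4:**
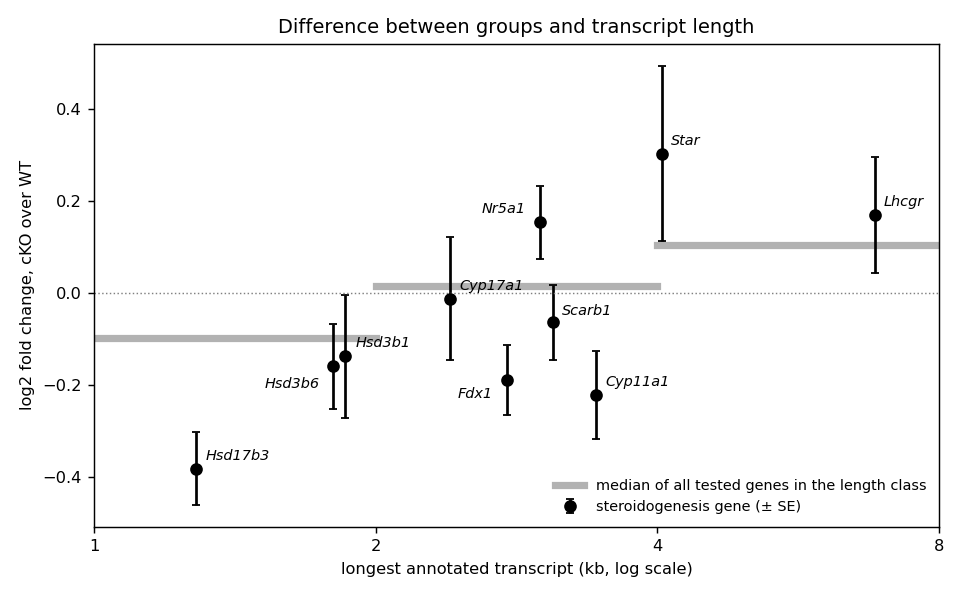
Log2 fold change of the libraries labelled cKO over WT (points, ± SE) against the longest annotated transcript of each of the 10 genes in kb on a log axis. Grey bars give the median of all tested genes under 2 kb, from 2 to 4 kb and from 4 kb upwards, which rise from -0.099 to 0.10, and Hsd17b3 is both the shortest and the lowest of the points.

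The rest of the pathway was described with 8 lists of 97 genes, of which 78 were tested and edgeR called 0. In whole testis the reads of these genes can come from cells other than Leydig cells, and their source was not tested. DESeq2 called 2, Jun and Igf1r, against 1.48% of all genes it tested. Over these lists 24 genes were lower and 54 higher. At an unadjusted p under 0.05, 2 were lower and 5 higher, and 4 lower and 15 higher did not overlap. Over all tested genes these shares were 6.54% and 7.33% by p and 8.85% and 10% without overlap, so that the 5 higher of 78 by p were near the background. The median log2 fold change was 0.086.

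Genes that supply cholesterol to Star gave 4 lower and 7 higher of 11. Npc1, which releases cholesterol from lysosomes, had 7.81 ± 0.50 CPM in WT and 9.29 ± 0.495 CPM in cKO, without overlap (log2 fold change 0.25, SE 0.092, edgeR adjusted p = 0.306). Among 5 tested electron carriers and their reductases 1 was lower and 4 were higher, with a median of 0.018. The reductase of Fdx1, Fdxr, had 33.0 ± 1.74 and 30.4 ± 2.90 CPM (log2 fold change -0.12, SE 0.084, edgeR adjusted p = 0.550), and Por and Cyb5a, the partners of Cyp17a1, had log2 fold changes of 0.086 and 0.018.

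Of the other Hsd17b family members 8 were tested, 5 of them lower and 3 higher, with a median of -0.064 and none without overlap. The highest of them was Hsd17b4, an enzyme of peroxisomal fatty acid breakdown, at 56.6 ± 4.55 CPM in WT and 60.5 ± 3.45 CPM in cKO. Genes that act on or respond to finished androgens gave 5 lower and 3 higher of 8. Cyp19a1, which makes estrogen from androgens, had 4.30 ± 0.303 and 4.85 ± 0.117 CPM without overlap (log2 fold change 0.18, SE 0.11, edgeR adjusted p = 0.478). Of the 4 adrenal genes, Cyp21a1 alone was tested, at 0.563 ± 0.164 and 0.417 ± 0.060 CPM with overlapping groups.

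The LH and cyclic AMP signalling list had 2 lower and 19 higher of 21, with a median of 0.099. These values are of whole testis and do not by themselves give the state of signalling in Leydig cells. The adenylyl cyclase Adcy9 had 8.15 ± 0.479 CPM in WT and 9.90 ± 1.00 CPM in cKO (log2 fold change 0.28, SE 0.10, edgeR adjusted p = 0.306). The phosphodiesterase Pde8a, which breaks down cyclic AMP, had 278 ± 7.89 and 310.1 ± 22.4 CPM (log2 fold change 0.16, SE 0.070, edgeR adjusted p = 0.352). Both were without overlap. Corrected for GC content and length, the log2 fold change of Adcy9 was 0.16, the median of the list was 0.0012, and that of the cholesterol list was -0.026 against 0.072 uncorrected.

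Transcription factors and signals that regulate Leydig cells had 6 lower and 18 higher of 24, with a median of 0.11 that was 0.033 after the same correction. Igf1r, the receptor of insulin-like growth factor, had 21.2, 20.7 and 19.1 CPM in WT 1, 2 and 3 and 23.2, 30.2 and 27.8 CPM in cKO 1, 2 and 3. Its groups did not overlap (log2 fold change 0.41, SE 0.097, edgeR adjusted p = 0.276), and the log2 fold change was 0.20 (adjusted p = 0.469) corrected for GC content and length. Jun, an immediate early transcription factor, had 9.36, 13.8 and 13.4 CPM in WT 1, 2 and 3 and 8.73, 8.24 and 8.51 CPM in cKO 1, 2 and 3. These did not overlap either, and WT 1 lay near the cKO libraries (log2 fold change -0.52, SE 0.13, edgeR adjusted p = 0.276). Nr5a2, a close relative of Nr5a1 with 17 to 33 reads per library, had 0.280 ± 0.016 and 0.418 ± 0.053 CPM (log2 fold change 0.58, SE 0.25, edgeR adjusted p = 0.342). Gata4, which acts with Nr5a1 on Leydig promoters, had 31.8 ± 2.10 and 35.7 ± 2.90 CPM with overlap (log2 fold change 0.17, SE 0.082, edgeR adjusted p = 0.379).

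**Figure D5:**
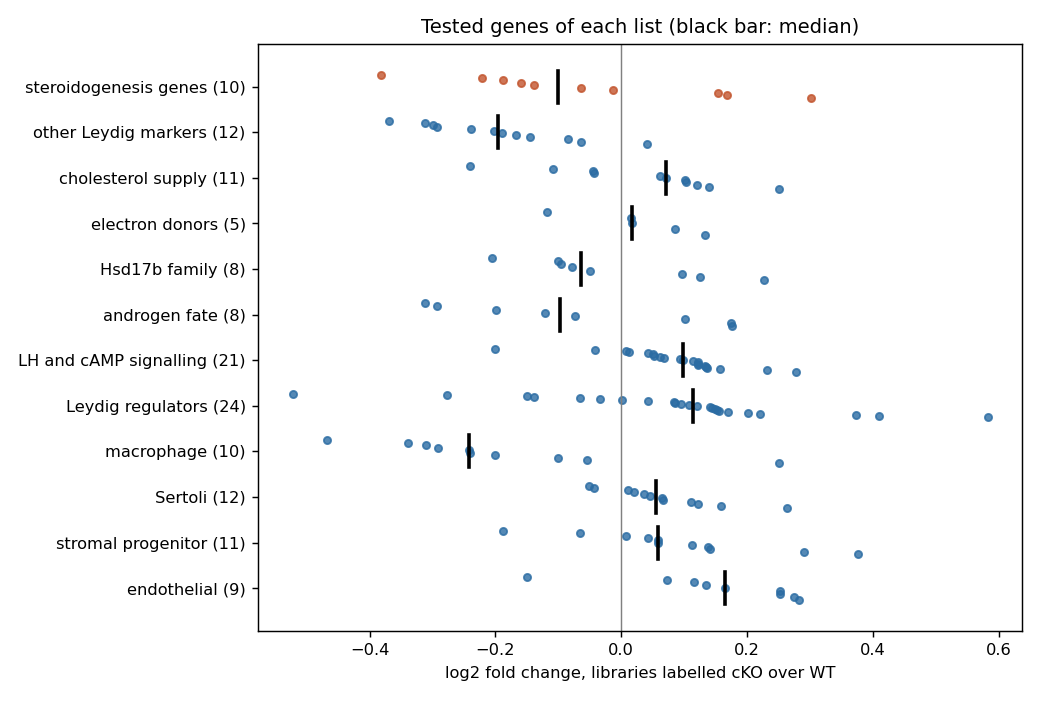
Log2 fold change of the libraries labelled cKO over WT for each tested gene (points) of the steroidogenesis genes and 11 lists, with the number of tested genes in brackets and a black bar at the median. The values are not corrected for GC content or transcript length. The medians of the steroidogenesis genes, the other Leydig markers and the macrophage markers lie below 0, at -0.10, -0.20 and -0.24, as do those of the Hsd17b family and androgen lists at -0.064 and -0.098, and those of the cholesterol supply, signalling and regulator lists lie above 0.

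Markers of other cells of the interstitium and tubules were read beside these values. Testicular macrophages lie against Leydig cells, and 9 of their 10 markers were lower and 1 higher in cKO, with a median of -0.24 and summed levels of 137 to 168 CPM in WT and 134 to 153 CPM in cKO. Sertoli cells, which also express Nr5a1, had 2 of 12 markers lower and 10 higher (median 0.055, summed 1757 to 2076 CPM in WT and 1740 to 2217 CPM in cKO). Endothelial markers gave 1 lower and 8 higher of 9 (median 0.16, summed 54.7 to 57.2 CPM in WT and 57.6 to 68.0 CPM in cKO), and stromal progenitor markers 2 lower and 9 higher of 11 (median 0.059). Over all tested genes 49.3% were lower, with 71.0% of those under 2 kb and 24.7% of those of 4 kb or more. The counts and medians of these lists are given without correction for GC content and length. The immunoglobulin receptor gene Fcgr3 had 20.1 ± 1.59 CPM in WT and 15.8 ± 1.23 CPM in cKO (log2 fold change -0.34, SE 0.088, edgeR adjusted p = 0.276), and the mannose receptor gene Mrc1, also of macrophages, had 47.9 ± 1.51 and 56.99 ± 4.50 CPM (log2 fold change 0.25, SE 0.074, edgeR adjusted p = 0.288). Sox9 and Wt1 of Sertoli cells had log2 fold changes of 0.26 and 0.16, Cdh5 of endothelium 0.25 and Nes of Leydig progenitors 0.38, each without overlap, and Nes had 0.24 when corrected for GC content and length. None of these lists held a gene called by edgeR or DESeq2, and the part of these cells in the values of the steroidogenesis genes was not tested.

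Over the 6 libraries, the median centred profile of the 10 genes was 0.090, 0.098 and 0.0035 in WT 1, 2 and 3 and 0.086, -0.16 and -0.057 in cKO 1, 2 and 3 on the log2 scale. Among 16820 other genes that averaged 1 CPM or more, the 5 closest to it were Ndufb10, Rer1, Rangrf, Mtif3 and Rpl7a, with root-mean-square differences of 0.020 to 0.023, against a median of 0.15 over all ranked genes. Of 11 Leydig markers ranked in this way, 4 were in the nearer 50 percent of genes. None of the 5 closest genes is on the list of Leydig markers. The distance depends on the size of variation as well as its shape, and the median profile ran only from -0.16 to 0.098. A small distance can therefore come from low variation, and how many genes share the profile was not tested.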

How the data were processed

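The deposited files are tables of raw read counts per gene, one per library, in the layout of STAR's gene counts, with no normalization. The submitters' processing notes name STAR, HTSeq, DESeq2 and the build mm10, with no versions or roles. Reads on the strand opposite to the gene made up 96.0% to 96.2% of stranded counts and were used. Lines that name no gene (unmapped, multimapping, outside genes, ambiguous) held 14.8% to 16.7% of reads and were left out. Symbols were given to 52093 of 53700 identifiers, and 2 of 234 list entries (Hsd3b8 and Hsd3b9) were not matched. Positions are from GENCODE M21 on GRCm38.

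Counts were tested with edgeR 4.0.16 in R 4.3.3: the filterByExpr minimum count was 10, libraries were scaled by TMM, and the quasi-likelihood test compared the 3 cKO with the 3 WT libraries with no covariate. P-values were adjusted by Benjamini-Hochberg over the 21902 genes kept, with 0.05 as threshold. CPM were computed here from the deposited counts with TMM-scaled library sizes. Standard errors and 95% intervals come from the F statistic. No batch is named in the labels. P-values weigh the difference between the groups against the variation between mice within a group, with dispersion estimates that edgeR partly shares across genes. The procedure was tried on simulated counts only with changes larger than those of the 10 genes, so its power for changes of their size was not tested.

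The genes and the 22 pathway and marker lists were chosen with earlier results of these data known. Named beside the 10 genes and Msl3 are, per list, up to 4 genes with an unadjusted p under 0.05 and no overlap, the 5 genes closest in profile, tested genes within 3 places of each gene with such a p and no overlap, and defining markers. Other list genes named for their role were chosen after their values were seen, as were Slc35d2, Ercc6l2 and the motif TCAAGG. Some genes these rules or lists hold are not reported here. The 15 alternatives were RLE scaling, library totals alone, no filter, at least 10 reads in every library, a replicate block, unstranded counts, the robust form of the test, a loess correction for GC content and transcript length (span 0.3), DESeq2 1.42.0 and each library left out. Alternatives for summed levels, list medians and list genes were chosen after seeing the data. Sequences are from RefSeq, GRCm38.p6.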

Additional observations from a re-analysis of the deposited data

How the results depend on the processing

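None of the 10 genes was called in 11 of 15 alternative fits. With no filter on low counts 2 were called (Hsd17b3, and Star with adjusted p = 0.0240), with DESeq2 1 (Hsd17b3), and with a library left out 0 to 1 (Hsd17b3, without WT 1 or without cKO 1). Over all genes, 4 were called, against 757 with no filter, 193 with DESeq2, 49 with a replicate block, 2 with unstranded counts and 1 to 628 with a library left out (628 without cKO 1, 116 without WT 1). The cause was not tested. The log2 fold change of Cyp17a1 was 0.0048 with GC content and length corrected and ran from -0.16 to 0.14 with a library left out, and that of Hsd3b1 ran from -0.25 to 0.092. The median over the 10 genes stayed below 0, from -0.15 to -0.038 with a library left out. Relative to the other 9 genes in place of the Leydig markers, the cKO differences were -0.16 for Fdx1, -0.20 for Cyp11a1, -0.14 for Hsd3b6 and -0.37 for Hsd17b3.

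The replicate numbers were not used as pairs. Deviations from the group means of WT and cKO libraries with one number correlated across 16870 genes at 0.40, 0.27 and -0.083 for numbers 1, 2 and 3. For libraries with different numbers the correlations ran from -0.42 (WT 2 with cKO 1) to 0.20 (WT 2 with cKO 3). Numbers 1 and 2 thus lay above these and number 3 did not. Deviations within a group sum to 0, so these values are not independent. With a replicate block 0 of the 10 genes were called, and Hsd17b3 had an adjusted p of 0.0558.

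Each of the 10 genes had at least 920 reads in each library. With 3 mice a group, the standard error of their log2 fold changes ran from 0.076 (Fdx1) to 0.19 (Star).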

Other observations

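Some genes beside the steroidogenesis genes on the chromosome were read for values shared with them. Of the tested genes on either side of Hsd17b3, Slc35d2 was lower in cKO without overlap (log2 fold change -0.31, SE 0.19, edgeR adjusted p = 0.483), and Ercc6l2 had a log2 fold change of 0.037 with overlapping groups. Ston1 near Lhcgr (0.19), Olfml2a near Nr5a1 (0.30) and 4933407I05Rik next to Fdx1 (-0.18) did not overlap between groups, and none of the 3 passed in edgeR (adjusted p from 0.310 to 0.339).

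Among genes of the germ cells, which lie inside the tubules, round spermatid markers gave 9 lower and 1 higher of 10. Of these, 0 were called by edgeR and 1 by DESeq2 (Spata25). Their median log2 fold change was -0.15, and it was -0.099 after correction for GC content and length. Spermatocyte markers gave 3 lower and 7 higher of 10, with a median of 0.028 and 0 called by either tool. Over all genes tested, edgeR called 0.0183% and DESeq2 1.48%.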
